A study of Mus musculus with 12 samples.

Results

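The RNAs described here were read by 92 of the 90752 probes of a mouse long non-coding RNA array and had their highest level in crushed sciatic nerve at day 7. A probe was taken when its mean at day 7, over the 3 deposited log2 columns of that day, lay at least 2 above the day 0 mean, at least 1 above the day 3 mean and at least 1 above the day 14 mean. It also had to be well above background, by the scanner software's own flag, on all 3 day 7 arrays. The differences alone were met by 126 probes, and the detection flag left 92 of them, or 0.101% of the array. These values of day 7 against the other days chose the probes, so they are given as a description and carry no test.

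The series followed the distal segment of the right sciatic nerve of C57Bl6 mice aged about 2 months. Under chloral hydrate the nerve was compressed for 30 s at the upper thigh, which disconnects the axons and leaves the outer sheath whole, and a ligation marked the crush site. The distal 0.5 cm was collected at 0, 3, 7 or 14 days after surgery. Of 72 mice, 18 stood behind each time point, as 3 pools of total RNA from 6 mice, and each pool was hybridised to 1 single-colour array. The labels name no genotype or further treatment, and day 0 is the only reference group. Depending on the array, 64.2% to 79.5% of spots passed the scanner's detection flag, and none was saturated. The number of arrays limits the precision of every value.

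In the distal stump of a crushed nerve the axon fragments and the myelin around them are broken down, a process known as Wallerian degeneration. Schwann cells leave their myelinating state and become repair cells, blood-borne macrophages enter and clear debris, and Schwann cells and fibroblasts divide before new axons grow in and are remyelinated. Long non-coding RNAs are transcripts with little coding capacity, and many of them are capped and polyadenylated like messenger RNA. The hexamer AATAAA is the canonical polyadenylation signal, and it lies a short way upstream of the end of a transcript. The arrays held RNA of the whole tissue, so fewer cells of a type and less RNA per cell cannot be told apart.

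No gene names come with the probe IDs in the files. The probes are therefore given by ID and by their sequence of 60 bases, and the labelled tissue could not be checked against its marker genes. The first set shown holds the 10 probes with the largest peak, which is the day 7 mean minus the highest mean of the other days. The sequences are written 5′ to 3′, and capitals mark AATAAA where a probe holds it.
MOUSELNCRNA_56040: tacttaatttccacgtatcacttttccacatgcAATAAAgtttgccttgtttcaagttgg
MOUSELNCRNA_25529: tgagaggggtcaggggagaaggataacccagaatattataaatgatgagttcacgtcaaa
MOUSELNCRNA_26597: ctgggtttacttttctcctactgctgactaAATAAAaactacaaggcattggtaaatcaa
MOUSELNCRNA_48569: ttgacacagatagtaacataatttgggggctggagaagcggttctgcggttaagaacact
MOUSELNCRNA_59068: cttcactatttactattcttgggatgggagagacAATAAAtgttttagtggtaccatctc
MOUSELNCRNA_49187: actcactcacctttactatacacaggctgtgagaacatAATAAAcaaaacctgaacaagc
MOUSELNCRNA_4964: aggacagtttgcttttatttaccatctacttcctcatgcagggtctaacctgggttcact
MOUSELNCRNA_77904: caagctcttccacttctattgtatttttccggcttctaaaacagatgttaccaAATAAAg
MOUSELNCRNA_319: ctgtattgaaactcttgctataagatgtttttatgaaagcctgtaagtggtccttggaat
MOUSELNCRNA_59037: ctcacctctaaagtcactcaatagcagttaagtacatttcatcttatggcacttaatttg

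Sequences of the 4 probes that were brightest at day 7 follow, since the same rule caught RNAs over the whole range of brightness. Capitals again mark AATAAA.
MOUSELNCRNA_85436: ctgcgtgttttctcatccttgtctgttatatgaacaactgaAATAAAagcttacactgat
MOUSELNCRNA_29330: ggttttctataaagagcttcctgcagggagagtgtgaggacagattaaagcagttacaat
MOUSELNCRNA_18258: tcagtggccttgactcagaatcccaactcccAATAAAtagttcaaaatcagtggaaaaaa
MOUSELNCRNA_64197: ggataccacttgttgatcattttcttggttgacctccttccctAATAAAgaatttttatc

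The peak was mostly modest in size. Its median over the 92 probes was 1.31 on the log2 scale, or 2.48-fold, with quartiles of 1.11 and 1.59. A peak of 2 or more was seen in 13 probes, and 62 had a peak below 1.5. Against day 0 the day 7 difference was larger, with a median of 3.39 (10.45-fold) and a highest value of 8.81. The median difference was 1.70 against day 3 and 1.46 against day 14. The rule asked for 2 over day 0 and for 1 over each flanking day, which sets part of this order.

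Levels at day 7 ran from 4.66 to 15.82 in deposited log2 units, with a median of 7.79. The median level of the same probes was 4.06 at day 0, 5.70 at day 3 and 6.19 at day 14. At day 0, 24 of the 92 probes (26.1%) were well above background on none of the 3 arrays, against 21.4% of all probes of the array. The same held for 4 probes (4.35%) at day 3, against 23.3% of all, and for 26 (28.3%) at day 14, against 35.9% of all. Detection on any day was asked of the 92 but not of all probes. Of the 62803 probes well above background on every array of 1 or more days, far fewer were undetected. Their shares were 0.885% at day 0, 1.42% at day 3 and 7.92% at day 14. The flag was passed on every one of the 12 arrays by 34 of the 92 probes, and by 52853 of the 90752 on the array. For an undetected day only a lower bound of the fold can be given. It sets the day 7 mean, on the scanner signals scaled to a common 75th percentile, against a floor, which on each array is the lowest signal that passed the detection flag or the probe's signal if that is higher. For the 24 probes undetected at day 0 the median bound was at least 4.25-fold, and the highest was at least 116-fold, for MOUSELNCRNA_71012.

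The 92 probes reached day 7 along different courses. Each course was classed by whether the day 3 and day 14 means lay at least 1 above, within 1 of, or at least 1 below the day 0 mean. A total of 52 probes lay above day 0 on both sides of the peak. Their median difference from day 0 was 2.35 at day 3, 3.94 at day 7 and 2.41 at day 14. Their means thus lay above day 0 already at day 3 and still at day 14, which does not make every level high. At day 0, 13 of the 52 were well above background on no array. Some, such as MOUSELNCRNA_59068, were well above background on no day 14 array. Their day 7 levels ran from 5.09 to 15.82 and their peaks from 1.0 to 4.77. In 37 of the 52 every day 7 array lay above the other days with no overlap, as in 2.37% of all probes of the array. The rule itself favours such a gap, so its counts per class are given as a description.

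Another 18 probes were near their day 0 level at day 3 and above it at day 14, with medians of 0.52, 2.68 and 1.25 at the 3 days. Their peaks ran from 1.02 to 3.64, and 13 of the 18 showed no overlap. In 12 probes both flanking days were near day 0, and their median difference was 0.59 at day 3, 2.21 at day 7 and 0.76 at day 14. All 12 of these showed no overlap between day 7 and the other days, and their peaks ran from 1.09 to 2.83. A further 8 probes were above day 0 at day 3 and near it at day 14, with medians of 1.51, 3.13 and 0.59, and 6 of the 8 showed no overlap. The remaining 2 were below day 0 at day 3 by a median of -1.51 and near it at day 14, and in both the days overlapped.

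The highest rise of all was that of MOUSELNCRNA_73433, which is named here because of that value. It read 3.60, 3.22 and 4.22 at day 0 and 11.62, 11.43 and 10.93 at day 3. At day 7 it read 12.62, 12.29 and 12.56, and at day 14 it read 10.36, 9.71 and 10.21. Most of its rise was thus in place by day 3, and its peak over day 3 was 1.16.

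The largest peak belonged to MOUSELNCRNA_56040, and it rested on pools that lay far apart. Its deposited log2 values were 2.94, 2.78 and 1.78 at day 0 and 3.99, 8.62 and 1.74 at day 3. They were 11.49, 10.23 and 6.95 at day 7 and 2.99, 5.49 and 3.15 at day 14. The day 7 mean of 9.55 ± 2.35 (SD, n = 3) stood 4.77 above the day 3 mean of 4.78 ± 3.51 (SD, n = 3). Replicate 2 of day 3 was higher than replicate 3 of day 7, so the groups overlapped. Against day 0, where no array detected it, the bound was at least 59.9-fold.

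MOUSELNCRNA_25529 had a peak of 3.64 (12.4-fold) with close replicates. Its day 7 values were 7.56, 7.34 and 8.07. The values of the other days were 3.02, 2.53 and 2.90 at day 0, 2.96, 3.40 and 4.77 at day 3, and 4.43, 4.04 and 3.59 at day 14. Every day 7 array was above every other array, and at day 14 the probe was detected on none, with a bound of at least 8.32-fold.

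MOUSELNCRNA_4964 was detected on all 12 arrays and had the tightest day 7 values among the 10 probes. It read 4.90, 4.55 and 4.84 at day 0 and 7.82, 7.61 and 8.33 at day 3. At day 7 it read 11.68, 11.40 and 11.25, and at day 14 it read 8.97, 8.49 and 8.99. The steps between days were all wider than the spread within a day, with SDs between 0.19 and 0.37 (n = 3 each).

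MOUSELNCRNA_48569 was also bright, at 9.78, 10.03 and 9.03 on the day 7 arrays. It read 5.91, 5.44 and 6.26 at day 0, 7.07, 8.34 and 4.69 at day 3, and 6.14, 7.10 and 7.12 at day 14. Its day 3 arrays were widely spread, but none reached the lowest day 7 value.

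MOUSELNCRNA_77904 read 8.05, 7.42 and 8.36 at day 7 and was detected on no day 14 array, where it read 3.48, 3.05 and 4.69. Its day 0 values were 3.68, 3.45 and 2.25 and its day 3 values 5.38, 4.55 and 6.39. The bound of day 7 over day 14 was at least 10.2-fold. MOUSELNCRNA_319 was a dim probe, at 5.58, 5.16 and 4.38 on day 7. It read 1.97, 2.26 and 1.71 at day 0, 3.08, 3.26 and 1.70 at day 3, and 1.89, 1.76 and 1.70 at day 14, and its peak was 2.36.

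Some of the largest peaks came with a shared order of the 3 day 7 pools. The day 7 columns spanned more than 2 in 10 of the 92 probes, and in 7 of these replicate 1 was the highest and replicate 3 the lowest. MOUSELNCRNA_26597, for example, read 12.50, 11.01 and 7.31 at day 7. It read 3.90, 3.52 and 3.67 at day 0, 3.74, 6.04 and 1.73 at day 3, and 7.10, 9.15 and 4.81 at day 14. Its day 14 replicate 2 was above its day 7 replicate 3.

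The same order was seen in MOUSELNCRNA_59068, at 8.85, 7.47 and 5.25 on the day 7 arrays. It read 1.71 on all 3 day 0 arrays, 4.08, 4.25 and 5.09 at day 3, and 1.71, 4.72 and 1.72 at day 14, so that day 14 replicate 2 stood apart from its group as well. MOUSELNCRNA_59037 read 7.98, 6.54 and 4.34 at day 7, with 5.17, 2.83 and 4.06 at day 0, 2.32, 3.42 and 2.42 at day 3, and 4.35, 5.48 and 1.86 at day 14. Its day 7 replicate 3 was below single arrays of day 0 and day 14. MOUSELNCRNA_61667, at 10.12, 8.34 and 5.22, MOUSELNCRNA_34416, at 8.85, 7.69 and 6.41, and MOUSELNCRNA_52777, at 8.28, 7.33 and 5.82, also had it. Over all 58215 probes well above background on the 3 day 7 arrays, only 123 spanned more than 2, and 64 of these (52.0%) had that order. Over the same probes at any span, 21.4% had it, and of the 92 at any span 22 (23.9%) had it. In the 7 probes with the wide span the level thus differed by pool in that order. The part of the pool in their peaks was not tested. The count of 10 and this comparison were chosen after the values were seen.

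Without the probes that spanned 1 or more at day 7, 55 of the 92 remained. In 68 of the 92 probes every day 7 array was above every array of the other days, and in 24 they overlapped. Over the whole array 2.37% of probes had no such overlap, and the rule itself favours it. The highest day 7 array was replicate 1 in 38 probes, replicate 2 in 31 and replicate 3 in 23.

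The day 7 columns of the 4 brightest probes spanned 0.60 to 1.23. MOUSELNCRNA_85436 read 10.89, 10.88 and 11.26 at day 0, 14.80, 14.50 and 13.42 at day 3, 15.60, 16.26 and 15.60 at day 7, and 14.60, 13.77 and 14.36 at day 14. Its lowest day 7 value was above its highest day 3 value, and its peak was 1.58, or 2.99-fold. MOUSELNCRNA_64197 rose from a day 0 mean of 8.35 ± 0.16 (SD, n = 3) to 12.64 ± 0.59 at day 3 and 13.86 ± 0.46 at day 7, and was 12.32 ± 0.18 at day 14. Most of its rise had taken place by day 3.

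MOUSELNCRNA_29330 had a day 0 mean of 12.97 ± 0.19 (SD, n = 3), which was already bright, and a day 7 mean of 14.98 ± 0.30. Its day 7 minus day 0 difference of 2.01 was the smallest of the 92. MOUSELNCRNA_18258 had a day 7 mean of 14.81 ± 0.61 (SD, n = 3) against 13.55 ± 0.61 at day 3 and 13.68 ± 0.20 at day 14. Its day 7 replicate 1, at 14.17, was below its day 3 replicate 2, at 14.23, so these groups overlapped.

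The thresholds cut through a continuum. MOUSELNCRNA_28325 fell just outside the day 0 threshold at 1.95. For day 3 the innermost probe was MOUSELNCRNA_18791 at 1.0002, and MOUSELNCRNA_72811 lay just outside at 0.9998. For day 14 MOUSELNCRNA_90004 was just inside at 1.02 and MOUSELNCRNA_24816 just outside at 0.998. Raising all 3 thresholds by 0.5 left 25 of the 92 probes, and lowering them by 0.5 gave 522.

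The arrays lay on 3 slides, and the days were not spread evenly over them. Slide 1 held replicates 1 and 2 of day 0 and day 3, slide 2 held replicate 3 of both with replicates 2 and 3 of day 7, and slide 3 held replicate 1 of day 7 with all of day 14. Within slide 2 the day 7 minus day 0 threshold was met by 78 of the 92 probes, and the day 7 minus day 3 threshold by 77. Within slide 3 the day 7 minus day 14 threshold was met by 76. All 3 were met within slides by 50 probes. No difference was below 0 against day 0 or day 14, and 3 were below 0 against day 3.

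The rule was also applied with 1 day 7 array left out. Without day 7 replicate 1 it chose 136 probes, and on the array left out 58 of these met all thresholds and 123 lay above the highest mean of the other days. Without replicate 2 it chose 94 probes, with 58 and 93 on the array left out. Without replicate 3 it chose 109, with 60 and 97. Of the probes so chosen 79, 71 and 84 were among the 92. The means of the other days helped to choose them in each case, so these counts describe the spread of the pools and are no test of the peak.

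The rule treats day 3 and day 14 alike, so the comparison of those days is the one it leaves free, although both entered it. It asks whether RNAs that peak at day 7 lean to the early or to the late side. On the deposited scale day 14 was above day 3 in 53 of the 92 probes and below it in 39. In the limma fit to all 62803 detected probes, on scanner signals scaled to the 75th percentile, 23 of the 92 were called at an adjusted p below 0.05, 13 higher at day 14 and 10 lower. Of all probes tested 54.7% were called, 21.9% higher and 32.8% lower. Of the 92 probes, 28 passed the detection filter of the fit through day 7 alone. Among the other 64, 11 were called higher and 5 lower, a count added after the values were seen.

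The split depended on the scale. On the deposited values 24 were called, 20 higher and 4 lower at day 14, and over the array 53.7% were called, 27.9% higher and 25.8% lower. The median of all tested probes shifted from -0.16 on the scaled signals to 0.01 on the deposited values, and that of the 92 from -0.14 to 0.16. Arrays of day 3 and day 14 never shared a slide. A fixed slide term in the fit left 6 of the 92 called, 3 in each direction, and 18.2% of all tested probes. A random slide term left 8 of the 92 and 28.7% of all.

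The strongest changes between those days are shown by sequence, first 3 that were higher at day 14 and then 2 that were lower, beside MOUSELNCRNA_77904 shown earlier.
MOUSELNCRNA_61667: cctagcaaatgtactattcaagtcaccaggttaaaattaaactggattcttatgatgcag
MOUSELNCRNA_17274: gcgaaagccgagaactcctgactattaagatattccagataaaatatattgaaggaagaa
MOUSELNCRNA_89666: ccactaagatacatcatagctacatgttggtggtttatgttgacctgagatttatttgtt
MOUSELNCRNA_78104: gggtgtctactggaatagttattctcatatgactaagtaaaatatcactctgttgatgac
MOUSELNCRNA_30487: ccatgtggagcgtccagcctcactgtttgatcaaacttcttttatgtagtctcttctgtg

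MOUSELNCRNA_61667 was detected on no array of day 0 or day 3 and on all 6 later arrays. Its deposited values were 1.76, 1.72 and 1.71 at day 3 and 7.17, 7.33 and 5.17 at day 14. It was called higher at day 14 (adjusted p = 0.00377, limma), and the bound was at least 5.51-fold, with scaled means of 1.65 and 6.43. The groups did not overlap. The call was lost with a fixed slide term (adjusted p = 0.668, limma) and with a random slide term (adjusted p = 0.139, limma). Without day 7 replicate 1 its peak fell to 0.22, so that 1 pool carried its place among the 92.

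MOUSELNCRNA_17274 was detected on all 12 arrays and kept its call and direction in all the alternatives run. It read 6.22, 6.06 and 6.29 at day 0, 6.09, 8.12 and 5.92 at day 3, 10.05, 10.30 and 11.23 at day 7, and 8.64, 8.92 and 9.89 at day 14. The RNA was near its day 0 level on 2 of the 3 day 3 arrays. Its fitted day 14 minus day 3 difference was 2.37 (SE 0.56, adjusted p = 0.00541, limma), with a range of 1.86 to 3.59 over the alternatives.

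MOUSELNCRNA_89666 was detected on 1 array of day 3 and on all of day 14. It read 2.82, 3.12 and 4.70 at day 3 and 6.05, 5.37 and 5.96 at day 14, with no overlap. The fitted difference was 1.82 (SE 0.42, adjusted p = 0.00467, limma). With a fixed slide term it was 0.48 (adjusted p = 0.618, limma).

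On the early side, MOUSELNCRNA_77904 fell from scaled means of 5.64 ± 0.66 to 3.43 ± 0.89 (SD, n = 3 each), with an adjusted p of 0.0134 in limma. It was detected on no day 14 array, and the bound of day 3 over day 14 was at least 2.14-fold. The call was lost without day 14 replicate 2, at an adjusted p of 0.0542 in limma, and with a fixed slide term, at an adjusted p of 0.350.

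MOUSELNCRNA_78104 and MOUSELNCRNA_30487 were called lower at day 14 in limma, at adjusted p-values of 0.00531 and 0.00797. For both, 2 of the 3 arrays at day 3 and 0 at day 14 passed the flag, and the probes entered the fit through day 7 alone. The scaled means of MOUSELNCRNA_30487 were 5.01 and 3.37, which gave a bound of at least 1.38-fold. For MOUSELNCRNA_78104, at 4.34 and 2.36, the day 3 mean was itself under the lowest signal well above background at day 14, so no fold is given and the size of its difference is not known. With normexp background correction the calls of MOUSELNCRNA_61667, MOUSELNCRNA_77904, MOUSELNCRNA_78104 and MOUSELNCRNA_30487 were lost, at adjusted p-values in limma of 0.0738, 0.0513, 0.0611 and 0.103.

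Against day 0 the direction of the flanking days was partly built into the choice, because a low day 0 mean helps a probe in. As a description, 63 of the 92 were called higher at day 3 in limma and 0 lower, where 21.7% and 22.7% of all tested probes were called. At an unadjusted p below 0.05 the count of lower probes was 0 as well. At day 14, 54 were called higher and 0 lower in limma, against 19.4% and 29% of all tested probes, and 0 were lower at an unadjusted p below 0.05.

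The members nearest the median of their class show the ordinary course. For the largest class this was MOUSELNCRNA_59539, with means of 6.92 ± 0.13, 9.13 ± 0.40, 10.99 ± 0.26 and 9.94 ± 0.38 (SD, n = 3 each) at days 0, 3, 7 and 14. Its 4 days did not overlap at all. For the class near day 0 at day 3 it was MOUSELNCRNA_3793, with means of 3.81 ± 0.66, 3.20 ± 1.28, 6.38 ± 0.53 and 4.88 ± 0.80 (SD, n = 3 each) over the 4 days. For the class above day 0 at day 3 alone it was MOUSELNCRNA_86915, with means of 5.21 ± 1.22, 6.67 ± 0.10, 8.0 ± 0.64 and 5.83 ± 0.35. In the class of 2 it was MOUSELNCRNA_55025, with means of 4.94 ± 0.31, 3.22 ± 1.29, 6.99 ± 1.32 and 5.47 ± 1.38, whose days overlapped.

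Some of the 92 probes share much of their sequence, so they may read 1 RNA rather than separate RNAs, which was not tested. Overlap was defined as 25 or more shared bases. Of the 92 probes, 82 overlapped no other probe of the array. Shorter or imperfect matches were not counted, so these 82 need not all read separate RNAs. MOUSELNCRNA_13552, for example, closely resembles MOUSELNCRNA_58549 and MOUSELNCRNA_84414 without a shared run of 25 bases. The 3 pairs in which both probes were among the 92 are shown with the longest shared run in capitals.
MOUSELNCRNA_49187: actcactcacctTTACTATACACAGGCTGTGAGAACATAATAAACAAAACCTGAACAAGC
MOUSELNCRNA_71012: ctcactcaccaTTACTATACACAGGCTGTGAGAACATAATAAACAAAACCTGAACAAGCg
MOUSELNCRNA_58549: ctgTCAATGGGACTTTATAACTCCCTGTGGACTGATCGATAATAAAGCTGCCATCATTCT
MOUSELNCRNA_84414: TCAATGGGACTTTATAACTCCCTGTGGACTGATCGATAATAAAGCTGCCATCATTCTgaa
MOUSELNCRNA_67206: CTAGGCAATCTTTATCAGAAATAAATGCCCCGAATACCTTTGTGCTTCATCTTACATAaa
MOUSELNCRNA_88108: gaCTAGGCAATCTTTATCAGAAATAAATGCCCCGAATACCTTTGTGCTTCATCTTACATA

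The probes of the first pair share 48 bases, differ at the base just before the shared run, and rose in step. MOUSELNCRNA_49187 had means of 3.69 ± 0.55, 8.87 ± 1.09, 11.56 ± 0.59 and 8.82 ± 0.22 (SD, n = 3 each) at days 0, 3, 7 and 14. MOUSELNCRNA_71012 had 2.51 ± 0.14, 7.95 ± 0.91, 10.48 ± 0.62 and 7.88 ± 0.25. In both probes day 7 replicate 3 was the highest array, at 12.09 and 10.93.

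The second pair shares 57 bases. MOUSELNCRNA_58549 had means of 4.89, 7.45, 8.56 and 7.03 and MOUSELNCRNA_84414 had 4.82, 7.40, 8.63 and 7.08, which differ by less than the SDs between replicates. The third pair shares 58 bases. MOUSELNCRNA_67206 had means of 4.22, 4.33, 6.44 and 5.02 and MOUSELNCRNA_88108 had 4.23, 4.01, 6.37 and 4.95, and in both the day 7 arrays stood above all others. These 3 pairs were taken because both probes had met the rule, so a day 7 peak in both was given by the choice.

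Other overlaps joined a probe of the 92 to a probe outside them, and these did not always move alike. MOUSELNCRNA_11636 shared 58 bases with MOUSELNCRNA_45951 and with MOUSELNCRNA_65141, and the shared run with the former is in capitals.
MOUSELNCRNA_11636: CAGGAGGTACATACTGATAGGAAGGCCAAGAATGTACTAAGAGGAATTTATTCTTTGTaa
MOUSELNCRNA_45951: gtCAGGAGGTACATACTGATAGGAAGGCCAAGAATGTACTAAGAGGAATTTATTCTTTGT

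MOUSELNCRNA_11636 read 5.95, 5.0 and 7.11 at day 7 and 1.76, 7.89 and 2.29 at day 3. MOUSELNCRNA_45951 had means of 2.80, 1.79, 1.70 and 1.71 over the 4 days and MOUSELNCRNA_65141 had 2.48, 1.72, 2.09 and 1.73, and neither was well above background on any array. The peak of MOUSELNCRNA_11636, which had 1 spot per array, was thus not read by the probes that share nearly all of its sequence. MOUSELNCRNA_49189, which shares 40 bases with MOUSELNCRNA_40948, had means of 6.42, 9.18, 10.05 and 8.87 and was highest at day 7 too. MOUSELNCRNA_60122, with 48 bases in common with MOUSELNCRNA_54870, was not well above background on any array. MOUSELNCRNA_23823 is complementary to MOUSELNCRNA_55736 over 55 bases and was dim, with a day 7 mean of 4.22 and detection on 1 array.

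The probes were set against the RefSeq sequences of the mouse, build GRCm38.p6. No probe of the 92 lay whole in a promoter window, from 250 bases before to 50 after a gene's start, where 446 of all probes did. One place was found through the microRNA hairpins, with which 1062 probes shared 25 or more bases, and 1 of these was among the 92. MOUSELNCRNA_48506 lies whole within the hairpin of Mir377 at chr12:109740518-109740577 on the plus strand, from base 9 to base 68 of the hairpin. This is inside the non-coding gene Mirg, at chr12:109734981-109749458. Mirg belongs to the imprinted Dlk1-Dio3 region, where it is transcribed from the maternal chromosome and is the host of a large microRNA cluster. The probe is shown with the mature miR-377-3p in capitals, and the mature microRNA is shown with its seed, bases 2 to 8, in capitals.
MOUSELNCRNA_48506: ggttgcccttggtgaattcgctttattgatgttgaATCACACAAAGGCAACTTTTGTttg
mmu-miR-377-3p: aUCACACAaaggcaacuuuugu

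MOUSELNCRNA_48506 was dim, and it was well above background on all 3 day 7 arrays, on 1 day 3 array and on none of day 0 or day 14. It read 2.61, 2.48 and 2.90 at day 0, 2.92, 3.75 and 3.28 at day 3, 4.58, 5.30 and 4.68 at day 7, and 3.75, 3.66 and 3.51 at day 14. The day 7 arrays lay above all others. The bound was at least 2.13-fold over day 0 and at least 1.12-fold over day 14. Whether it read the hairpin's precursor or the host transcript was not tested.

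The neighbouring hairpins were looked at as well. Within 300 kb on either side of the hairpin, on the same strand, RefSeq lists 54 hairpins, and 53 of them had at least 1 probe, 71 probes in all. Of the 70 probes other than MOUSELNCRNA_48506, 40 (57.1%) had their highest mean at day 7. Over all probes of the array the share was 16.95%, and over the 991 probes of hairpins elsewhere it was 14.1%. The median day 7 minus day 0 difference of the 70 was 0.68, against 0.00 over all probes. On the scanner signals scaled to the 75th percentile the share was 51.4%, against 6.96% of hairpin probes elsewhere.

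These probes were mostly dim, and 27 of the 70 were well above background on no day 7 array. Of the 30 that were tested, 15 had their highest mean at day 7, against 16.6% of all tested probes. Among the 30, 3 had passed the detection filter through day 7 alone, and 13 of the other 27 were highest at day 7. Against day 0, limma called 8 of the 30 higher at day 7 and 1 lower, where 20.4% and 24% of all tested probes were called. Against day 3, 3 were called higher and 3 lower, with 15.7% and 18.6% over all probes. Against day 14, 8 were called higher and 0 lower in limma, with 4.35% and 5.61% over all, and 0 of the 30 were lower at an unadjusted p below 0.05. Without the 3 probes the calls of higher levels were 7, 2 and 7 of 27 against the 3 days. A probe to Mir433 and one to Mir1193 serve as examples, chosen after their values were seen. MOUSELNCRNA_83968, of Mir433, had means of 3.94 ± 0.41, 4.58 ± 0.10, 5.68 ± 0.13 and 4.55 ± 0.75 (SD, n = 3 each) over the 4 days. MOUSELNCRNA_74547, of Mir1193, had 2.79 ± 0.36, 3.17 ± 0.43, 4.64 ± 0.19 and 3.13 ± 0.80, but was well above background on 1, 1, 3 and 0 arrays, so that its peak stands over days that were mostly not measured above background. Other probes of the cluster, bright ones among them, were not highest at day 7. MOUSELNCRNA_34499, of Mir1188, had means of 9.73, 9.69, 9.21 and 9.03 over the 4 days, and MOUSELNCRNA_27499, of Mir485, had 8.45, 8.68, 8.02 and 7.96. MOUSELNCRNA_46520, of Mir432, was highest at day 7, at 7.46. For Mir134, MOUSELNCRNA_50388 was highest at day 7, at 5.21, but the brighter MOUSELNCRNA_79832 at day 3, at 6.69. The cluster was looked at because of MOUSELNCRNA_48506 and after its values were seen. Its probes share transcripts, and no test of it as a group was made.

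The 92 sequences were also compared with the rest of the array for the motif AATAAA, which was searched on the probe strand and, as TTTATT, on the other. AATAAA was present in 27 of the 92 probes (29.3%), against 14.7% of all probes and 16% of those tested. Probes chosen by the same steps for a peak at day 3 held it in 20% of 581 cases and those for a peak at day 14 in 16.5% of 139. In 25 of the 27 probes the motif lay within 30 bases of the probe's 3′ end, as it did in 88.7% of all probes that hold it. TTTATT was present in 10 of the 92 (10.9%) against 3.91% of all probes. The share was 4.48% in the probes with a peak at day 3 and 5.76% in those with a peak at day 14. The related signal ATTAAA was present in 5.43% against 5.61%.

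The 92 probes were also poorer in G and C, with a median content of 36.7% against 41.7% over the array. The median was also 36.7% in the 139 probes with a peak at day 14, and 38.3% in the 581 with a peak at day 3. G and C content moves with both A and T rich motifs. Its part in the shares was not tested. Probes with and without AATAAA had like peaks, with medians of 1.33 in 27 probes and 1.31 in 65. Their day 7 medians were 8.63 and 7.31.

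Peaks at day 7 were rarer than peaks at day 3. With the same steps and the roles of the days exchanged, 581 probes peaked at day 3 and 139 at day 14, and 90 were lowest at day 7. At the peak day the median level was 9.31 for the day 3 probes, 7.83 for the day 14 probes and 7.79 for the day 7 probes. At day 0, 26.1% of the day 7 probes were undetected on all arrays, close to the 22.2% and 24.5% of the other sets.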

How the data were processed

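RNA of 12 pools was measured on single-colour Agilent arrays, 1 pool per array. The authors' spot intensity values come from Agilent Feature Extraction 10.7 (submitters' processing notes; 10.7.1.1 per the file headers). They are background-subtracted but were not put on a common scale across arrays. Log2 values make up the deposited series table, and its columns share a median of 6.42 and correlate at 0.993 or more with the log2 scanner signals of the same array. How it was made is not given in the sources used here.

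Levels, courses and peaks are on the deposited log2 values. For tests, spots flagged as outliers were dropped, log2 signals of repeated spots were averaged and arrays were brought to the same 75th percentile, 9.34. The 62803 probes with the detection flag on every array of 1 or more days were fitted with limma 3.58.1 in R 4.3.3, with 1 mean per day over 12 arrays and Benjamini-Hochberg adjustment over all of them. The spread behind a p-value is that between pools of 6 mice. Python 3.11.15 was used for the rest. The fit and the finders of overlaps were tested on simulated data.

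The probes and lists were chosen with earlier results of these data known. The text names the 10 largest peaks, the 4 brightest probes, the 3 largest called rises and falls from day 3 to day 14, the probe nearest each class median, probes that overlap, and those at the thresholds; any other name was chosen after its values were seen. The planned lists of marker and pathway genes need gene names and were not run. Same-numbered arrays of day 0 and day 3 shared a slide, and the deviations of same-numbered arrays correlated at 0.325, 0.449 and 0.590. Differently numbered arrays of those days on slide 1 correlated alike, at 0.408 and 0.347. Those on different slides correlated at -0.52 to -0.41. Between day 0 and day 3 the correlation thus went with the slide, and no pairing by number was seen beyond it. With day 7 it did not go with the slide. On slide 2, day 0 replicate 3 correlated with day 7 replicates 2 and 3 at -0.389 and 0.082, and day 3 replicate 3 at -0.082 and -0.144. Same-numbered arrays of day 0 and day 7 correlated at -0.173, 0.343 and 0.082, and those of day 3 and day 7 at -0.186, 0.041 and -0.144. For day 14 against day 3 the same-numbered values were -0.003, 0.057 and 0.048, and against day 0 they were 0.153, -0.174 and -0.022. The alternatives were other normalizations, filters, thresholds, slide terms, the replicate number as a block and leaving out each array.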

Additional observations from a re-analysis of the deposited data

How the results depend on the processing

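The number of probes that met the rule was 92. It was 29 with normexp background correction and quantile normalization, 34 when detection on all 12 arrays was asked for, 25 and 522 with thresholds raised and lowered by 0.5, and 55 with day 7 columns spanning less than 1, an alternative chosen after seeing the data. It lay within 1.5 times of 92 elsewhere: 73 on scaled scanner signals (66 of them shared), 91 after quantile normalization (91 shared), 81 with slide as a fixed block (58 shared), 68 within slides (50 shared), and 87 to 136 without 1 array. Asking for only 1 of 2 spots well above background, also chosen after seeing the data, gave 101.

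Of the 92 probes, 23 were called for day 14 against day 3 in limma. Over the array 54.7% of tested probes were called. The count was 8 among the 34 probes detected on all 12 arrays (55.4% over the array), 6 and 8 with slide as a fixed and a random block (18.2% and 28.7%), and 18 to 30 without 1 array (41.9% to 58.96%). It was 16 among the 64 probes that did not pass the filter through day 7 alone, chosen after seeing the data. For day 3 against day 0 the count was 63 (44.4% over the array), 27 of 34 with detection on all 12 arrays (46.6%), and 54 to 68 without 1 array (39.1% to 43.8%). For day 14 against day 0 it was 54 (48.4%), 29 of 34 with detection on all 12 arrays (48.4%), and 50 to 58 without 1 array (32.4% to 56.1%). With the replicate block the 3 counts were 22, 61 and 56 (56.2%, 44.4% and 50.5% over the array), within 1.5 times of the values without it. None of the 496 alternative peak values of the named probes reversed in sign, and 29 moved by the day 7 SD of the probe or more. None of the 127 alternative day 14 minus day 3 values reversed in sign either, 11 of them lost the call, and the cause was not tested. The named probes were chosen for these values on the same arrays, so the kept signs are no test. Dim probes limit the rest: 87 of the 92 had 2 spots per array, and these spots differed by a median of 0.23 at day 0 and 0.080 at day 7. The other probes, among them MOUSELNCRNA_319, MOUSELNCRNA_11636, MOUSELNCRNA_61667 and MOUSELNCRNA_67206, had 1 spot and so no repeat.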
